A study of Mus musculus with 10 samples.

Results

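Sncg, Aspa, Cyb5r2, Ly6a, P2rx3 and Cby3 are 6 genes, none of them on the list of amino acid stress genes used here, that were picked because their intronic signal was high in wild-type mouse embryonic stem cells and low in cells with a substitution of the K754 lysine of Elongin A. They are 6 of the 24901 genes in a table of newly made RNA, and all 6 passed the low-value filter that 15161 genes passed. They were chosen by their RPKM in the EloA_WT, EloA_K754M and EloA_K754R columns, without a stated threshold, so the levels in those columns are given as a description and no test is made on them. The data went against the choice for 1 gene: Sncg was low in K754M cells and stood near the wild-type level in K754R cells. The other 5 were low in both mutants, at 9.32 to 19.8% of the wild-type mean in K754M cells and 9.36 to 22.4% in K754R cells.

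Elongin A is a subunit of an elongation factor that helps RNA polymerase II move along genes, and K754 is a lysine that Polycomb repressive complex 2 (PRC2) methylates. Nascent RNA was labelled with 2 mM 5-bromouridine for 10 min, captured with an antibody and sequenced (Bru-seq). Reads in introns, which are spliced out soon after they are made, follow new transcription more closely than reads in exons do. The values are RPKM, reads scaled to intron length and to the depth of the library.

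There were 10 samples in 5 groups of 2. EloA_K754M cells carried methionine in place of this lysine and EloA_K754R cells arginine, both edited and both with CJ7 as the line background in the labels. EloA_WT cells had unedited Elongin A and CCE28 as the line background. Eed_null cells lacked Eed, a core PRC2 subunit. Their line field read CCE28, their column name CJ7, and their genotype field named EloA instead of Eed. CJ7_WT cells were wild type with a CJ7 background. The protocol for cell growth speaks of CJ7 cells throughout, so the CCE28 entries are themselves in doubt. By the line field the mutants and EloA_WT differed in line as well as in Elongin A, and the line and the substitution cannot be told apart in those comparisons. The number of clones behind each edited line was not stated. Every culture was grown with LIF, 1 µM PD0325901 (a MEK inhibitor) and 3 µM CHIR99021 (a GSK3 inhibitor). The growth protocol describes mouse embryonic fibroblast feeders and the labelling protocol feeder-free dishes. Each of the 6 EloA libraries had its own column, whereas Eed_null and CJ7_WT each had 1 column over both samples, given here as the authors' pooled value with no spread.

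The RPKM values led back to whole reads, and the 6 libraries held 27107541 to 40171433 intronic reads, with 73940898 in Eed_null and 89095218 in CJ7_WT. The gene for Elongin A, listed as Tceb3, had 1.46 and 1.98 RPKM in EloA_K754M, 1.12 and 1.30 in EloA_K754R, 1.83 and 2.03 in EloA_WT, 1.89 in Eed_null and 1.51 in CJ7_WT. A substitution need not alter that level, so it does not check the edits. Eed had 7.97 RPKM in Eed_null and 10.0 in CJ7_WT, and a null allele need not remove intronic reads. The median log2 change of all tested genes was -0.06 in EloA_K754M and -0.14 in EloA_K754R, both against EloA_WT. Of 12 embryonic stem cell markers, 11 were in the table, and their summed RPKM was 210.5 to 367 in the mutants, 238 to 258 in EloA_WT, 168 in Eed_null and 193 in CJ7_WT. All 18 fibroblast markers were in the table and none was at 0 in every column. Their sum was 19.5 to 24.0 RPKM in the mutants, 15.6 to 16.0 in EloA_WT, 21.4 in Eed_null and 22.2 in CJ7_WT. Of the 15 tested, 1 rose in EloA_K754R (Tnc, a matrix protein, log2 change 0.82, adjusted p = 0.044 in limma) and none was called in EloA_K754M. None of the 15 had a negative log2 change in either mutant, against 57.4% and 64.5% of all tested genes. Their median log2 change was 0.41 in EloA_K754M and 0.55 in EloA_K754R. An unadjusted p under 0.05 in limma was reached by 4 and 7 of them, against 15.4% and 25.1% of all tested genes. The fibroblast sum was thus lowest in EloA_WT, where 5 of the 6 genes were highest among the EloA groups and Sncg was high, and its part in the results was not tested. In bulk RNA, fewer cells of a type and less RNA per cell cannot be told apart.

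The 6 genes do not form a known pathway. Sncg encodes gamma-synuclein, a small protein best known from sensory and other peripheral neurons. Aspa encodes aspartoacylase, which splits N-acetylaspartate into acetate and aspartate and whose loss in humans causes Canavan disease. Cyb5r2 encodes a cytochrome b5 reductase, which passes electrons from NADH to cytochrome b5. Ly6a encodes Sca-1, a lipid-anchored surface protein of the Ly6 family used to sort mouse blood stem cells. P2rx3 encodes an ATP-gated ion channel of pain-sensing neurons. Cby3 belongs to the Chibby family, whose founding member Cby1 binds beta-catenin. The genes lie on 5 chromosomes, with Aspa and Cby3 both on chromosome 11, Sncg on 14, Cyb5r2 on 7, Ly6a on 15 and P2rx3 on 2.

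Promoters were available for 3 of the 6 genes, from RefSeq on GRCm38.p6, and are shown because 2 of these genes, Aspa and Cyb5r2, had the same profile in both mutants while Sncg did not. Each run covers 250 bases before the start site to 50 after it, 5′ to 3′ on the gene's own strand, with CpG pairs in capitals. Sncg is at chr14:34374620-34374919, Aspa at chr11:73324588-73324887 and Cyb5r2 at chr7:107757983-107758282, all on the minus strand.
Sncg: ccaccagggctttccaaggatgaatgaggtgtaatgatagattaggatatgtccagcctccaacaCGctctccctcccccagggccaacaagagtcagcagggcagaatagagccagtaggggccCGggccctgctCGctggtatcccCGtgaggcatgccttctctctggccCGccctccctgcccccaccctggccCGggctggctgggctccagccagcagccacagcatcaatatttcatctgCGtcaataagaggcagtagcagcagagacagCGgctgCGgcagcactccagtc
Aspa: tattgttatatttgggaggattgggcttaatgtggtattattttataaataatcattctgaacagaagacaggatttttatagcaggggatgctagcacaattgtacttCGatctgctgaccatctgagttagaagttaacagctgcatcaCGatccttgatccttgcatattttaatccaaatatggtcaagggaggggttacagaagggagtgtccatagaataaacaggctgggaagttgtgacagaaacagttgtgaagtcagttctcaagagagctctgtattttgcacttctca
Cyb5r2: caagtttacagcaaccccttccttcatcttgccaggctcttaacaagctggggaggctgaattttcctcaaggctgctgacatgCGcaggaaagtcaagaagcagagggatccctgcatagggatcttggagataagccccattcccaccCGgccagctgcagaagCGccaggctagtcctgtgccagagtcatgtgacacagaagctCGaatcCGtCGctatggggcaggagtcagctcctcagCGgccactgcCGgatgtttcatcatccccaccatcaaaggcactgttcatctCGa
The Sncg promoter held 9 CpG pairs at 61.3% G + C and the Cyb5r2 promoter 9 at 55.3%. The Aspa promoter held 2 CpG pairs at 39.0%, against a median of 7 and 52.7% over 27025 promoters. The motifs searched for on both strands were TGATGNAAN (bound by ATF4 with a C/EBP partner), CACGTG, TGACGTCA and TATAAA. TGATGNAAN matched once in Cyb5r2, on the reverse strand as GTTTCATCA, and in 4.04% of all promoters. This match was at position 10 from the start site, in the stretch after it. TATAAA matched 3 times in Aspa, and 14.2% of all promoters held it. CACGTG and TGACGTCA, held by 7.24% and 1.88% of all promoters, matched in none of the 3. The letters alone say nothing about whether a factor binds.

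Aspa had the highest wild-type level of the 5 genes that were low in both mutants. It had 0.838 and 1.05 RPKM in EloA_K754M, 0.427 and 0.726 RPKM in EloA_K754R, and 6.12 and 5.66 RPKM in EloA_WT. The pooled columns gave 0.856 RPKM in Eed_null and 1.62 RPKM in CJ7_WT. Every column other than EloA_WT was low, and the lower EloA_WT value was 5.39 times the highest mutant value. On the log2(RPKM + 0.1) scale, the difference from EloA_WT was -2.53 (SE 0.24) in EloA_K754M and -3.18 (SE 0.24) in EloA_K754R. These values rest on 224 to 514 intronic reads in a mutant library and 2988 to 3824 in an EloA_WT library, so counting error is small.

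P2rx3 had 0.167 and 0.189 RPKM in EloA_K754M, 0.116 and 0.124 RPKM in EloA_K754R, and 1.16 and 1.13 RPKM in EloA_WT. Eed_null had 0.304 RPKM and CJ7_WT 0.460 RPKM. EloA_WT was again the highest group, with its lower value 5.96 times the highest mutant value. Both pooled columns lay between EloA_WT and the mutants, with CJ7_WT at 40.2% of the EloA_WT mean. The log2 difference from EloA_WT was -2.16 (SE 0.17) in EloA_K754M and -2.50 (SE 0.17) in EloA_K754R. Its neighbour in gene order, Ssrp1, a histone chaperone subunit, overlaps it on the opposite strand, and whether strand was used in counting is not given in the sources used here.

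Cyb5r2 had 0.0996 and 0.0972 RPKM in EloA_K754M, 0.127 and 0.162 RPKM in EloA_K754R, and 1.04 and 0.892 RPKM in EloA_WT. Eed_null had 0.165 RPKM and CJ7_WT 0.171 RPKM. The libraries of the mutants held 10 to 24 reads of it and those of EloA_WT 99 to 137, so each mutant value is imprecise while the gap between the groups is wide. The log2 difference from EloA_WT was -2.42 (SE 0.20) in EloA_K754M and -2.13 (SE 0.20) in EloA_K754R. Ppfibp2, a liprin gene, overlaps Cyb5r2 on the opposite strand and had 1112 to 2246 reads in the mutants and 1400 to 2077 in EloA_WT.

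Cby3 had 0.181 and 0.0881 RPKM in EloA_K754M, 0.178 and 0.0919 RPKM in EloA_K754R, and 1.71 and 1.17 RPKM in EloA_WT. Eed_null had 0.232 RPKM and CJ7_WT 0.273 RPKM. It had the fewest reads of the 6, 6 to 13 in a mutant library, against 86 and 149 in the EloA_WT libraries. The log2 difference from EloA_WT was -2.72 (SE 0.32) in both mutants, the widest error of the 6 genes. The 2 mutants were alike to within that error, with EloA_K754M minus EloA_K754R at -0.01.

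Ly6a had 0.735 and 0.717 RPKM in EloA_K754M, 0.859 and 0.783 RPKM in EloA_K754R, and 3.23 and 4.08 RPKM in EloA_WT. It was the one gene of the 6 that was also high in a pooled column, with 4.96 RPKM in Eed_null and 0.720 RPKM in CJ7_WT. The log2 difference from EloA_WT was -2.18 (SE 0.15) in EloA_K754M and -2.02 (SE 0.15) in EloA_K754R. High and low columns followed the line field: both groups labelled CCE28 were high and all 3 groups labelled CJ7 were low, although the protocol for cell growth speaks of CJ7 cells throughout. Of 15161 tested genes, Ly6a was the 1 gene whose EloA_WT and Eed_null values were each at least 3 times every mutant value and CJ7_WT, after adding 0.1 RPKM. Ly6a has closely similar paralogs between which reads can be split, and its level is uncertain to that extent.

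Sncg had 0.833 and 0.903 RPKM in EloA_K754M, 5.52 and 5.76 RPKM in EloA_K754R, and 5.71 and 7.05 RPKM in EloA_WT. Eed_null had 4.14 RPKM and CJ7_WT 4.44 RPKM. EloA_K754M was the only low group, while the ranges of EloA_K754R and EloA_WT overlapped. The log2 difference from EloA_WT was -2.74 (SE 0.14) in EloA_K754M and -0.17 (SE 0.14) in EloA_K754R, and EloA_K754M minus EloA_K754R was -2.57 (SE 0.14). The EloA_K754R difference became 0.03 once library medians were made equal and 0.01 under quantile normalization, so its sign depends on the scaling. On chromosome 14, where Sncg lies, the median log2 change of 505 tested genes was -0.01 in EloA_K754M and 0.25 in EloA_K754R. The part of that chromosome-wide difference in the Sncg values was not tested.

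**Figure D1:**
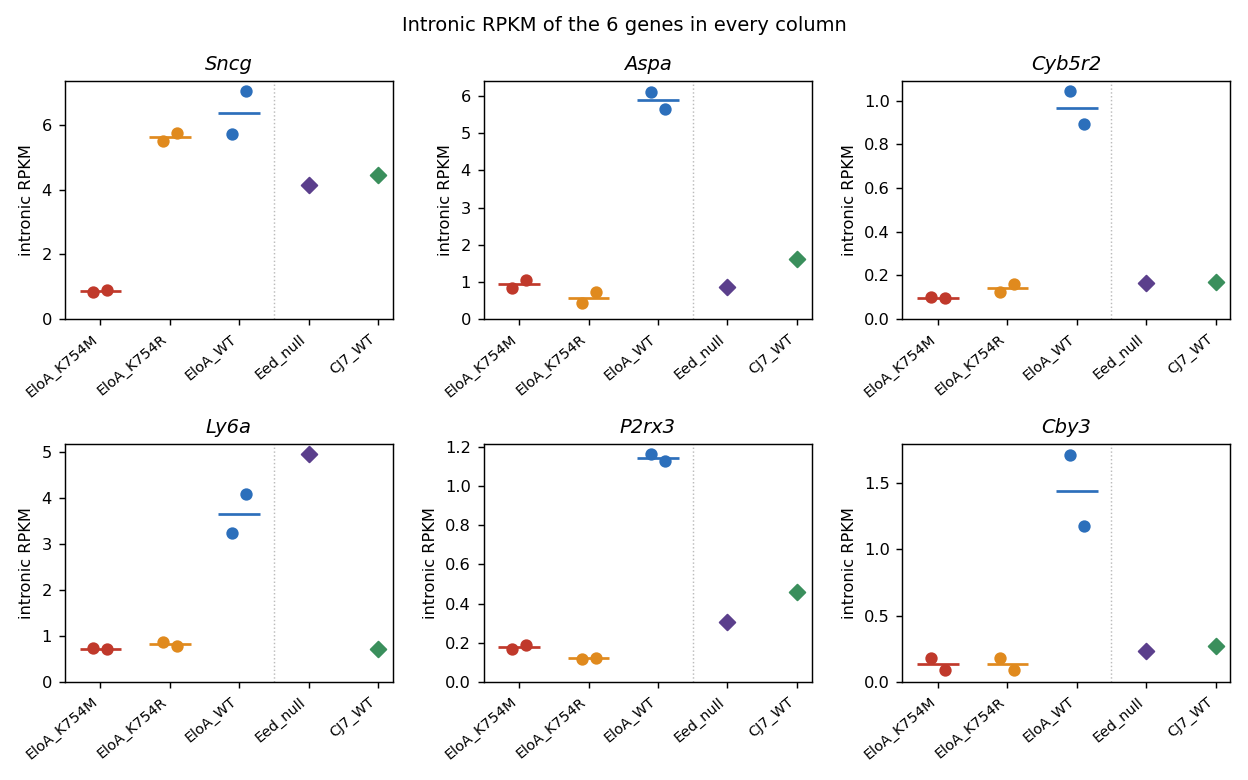
Intronic RPKM (y axis, linear from 0, a separate scale per gene) of the 6 genes in each group (x axis); circles are libraries, lines their means, and diamonds the authors' pooled columns. EloA_WT is the highest group for Aspa, Cyb5r2, P2rx3 and Cby3. Both pooled columns lie between it and the mutants for P2rx3 and Cby3, and narrowly so for Cyb5r2. Eed_null is also high for Ly6a at 4.96 RPKM, and EloA_K754M is the low group for Sncg.

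As levels, Sncg and Aspa were at the 92.3 and 91.3 percentiles of tested genes by mean RPKM in EloA_WT, Ly6a at 82.5, and Cby3, P2rx3 and Cyb5r2 at 56.3, 49.5 and 44.9. In EloA_WT the order of mean level was Sncg at 6.38 ± 0.945, Aspa at 5.89 ± 0.323, Ly6a at 3.66 ± 0.600, Cby3 at 1.44 ± 0.383, P2rx3 at 1.14 ± 0.0264 and Cyb5r2 at 0.967 ± 0.106 RPKM (SD, n = 2 each). Sncg and Aspa did not differ beyond their spread, nor did Cby3 and P2rx3. In EloA_K754M, Aspa at 0.944 ± 0.150 RPKM and Sncg at 0.868 ± 0.0495 RPKM were again the highest and did not differ beyond their spread (SD, n = 2 each). In EloA_K754R, Sncg led at 5.64 ± 0.171 RPKM and Ly6a followed at 0.821 ± 0.0536 RPKM (SD, n = 2 each).

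Both mutant comparisons share the EloA_WT libraries, so likeness between them is partly built in. Both EloA_K754M values lay below both EloA_WT values for all 6 genes, against 27.2% of tested genes. Both EloA_K754R values did so for 5 of the 6, against 38.8%, and the same 5 had all 4 mutant values below, against 18.8%, with Sncg as the exception. At a gap of at least 3 times after adding 0.1 RPKM, the counts were 6 of 6 in EloA_K754M, against 0.284%, and 5 of 6 in EloA_K754R, against 0.468%. For the same 5, both EloA_WT values were at least 3 times every mutant value, against 0.152% of tested genes. Since the genes were picked for this contrast, nothing is read from these counts. The median log2 difference over the 6 was -2.47 in EloA_K754M and -2.31 in EloA_K754R. By rank among tested genes, Sncg was 35 from the bottom in EloA_K754M and 7139 in EloA_K754R, while Aspa was 43 and 28.

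**Figure D2:**
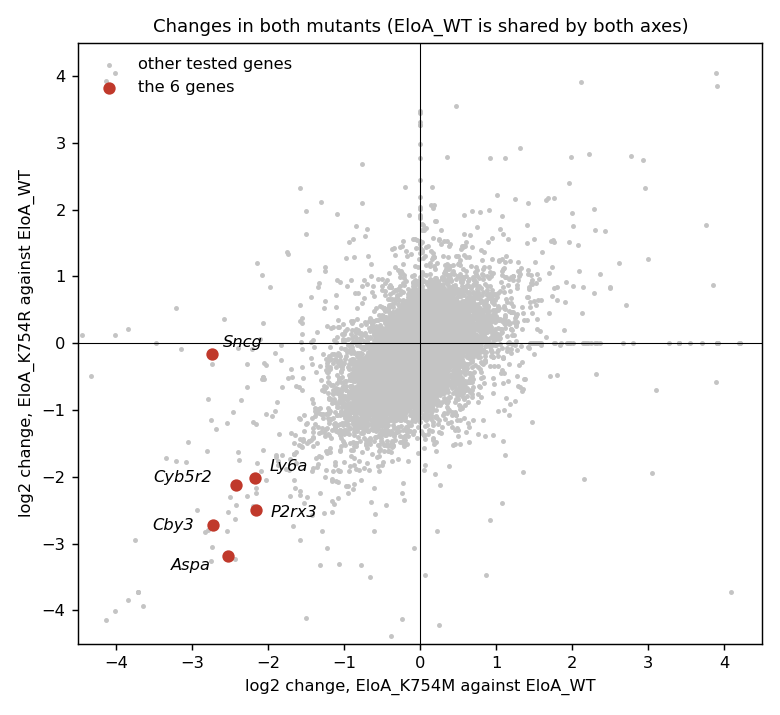
Log2 change of each tested gene in EloA_K754M (x axis) and EloA_K754R (y axis), both against the same EloA_WT libraries; red points are the 6 genes, and 14 of 15161 genes lie outside the axes. Sncg lies near 0 on the y axis at -0.17, and the other 5 lie between -2.02 and -3.18 on it.

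In all, 23 genes had the 3-fold pattern in both mutants: the 5 genes above, 9 from a list of targets of ATF4, the transcription factor of the amino acid stress response, and 9 others. The 9 ATF4 list genes were Slc1a4, Nupr1, Chac1, Trib3, Pck2, Gpt2, Stc2, Slc7a11 and Mthfd2. Slc1a4, a neutral amino acid transporter, had 0.465 and 0.372 RPKM in EloA_K754M, 0.355 and 0.301 RPKM in EloA_K754R, and 2.93 and 2.89 RPKM in EloA_WT. Chac1, which breaks down glutathione, had 0.313 and 0.218 RPKM in EloA_K754M, 0.203 and 0.182 RPKM in EloA_K754R, and 2.01 and 2.67 RPKM in EloA_WT. Aspa, Cby3, P2rx3 and Cyb5r2 were thus interleaved with stress genes in this listing. By the size of the gap after adding 0.1 RPKM, they stood at places 6, 7, 10 and 12, and Ly6a at place 18. Among the 9 others were Adm2, a peptide hormone, Jdp2, a bZIP transcription factor, and Fetub, a protease inhibitor. The other 6 were gene models without a name.

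The pooled columns were also low for most genes with this pattern. Genes chosen for high EloA_WT values are more likely to be lower elsewhere, so these counts are a description. CJ7_WT lay below both EloA_WT values for 22 of the 23 genes, all but a gene model without a name, against 53.1% of tested genes. Eed_null did so for 22 of 23, all but Ly6a, against 48.7%. CJ7_WT was under 1 in 3 of the EloA_WT mean for 14 of the 23, against 8.31% of tested genes, and Eed_null for 15, against 6.83%. For the 6 genes, CJ7_WT stood at 69.7% of the EloA_WT mean for Sncg, 27.6% for Aspa, 17.7% for Cyb5r2, 19.7% for Ly6a, 40.2% for P2rx3 and 18.9% for Cby3. Aspa, Cyb5r2, Ly6a and Cby3 stood at 17.7 to 27.6% there, without any substitution of Elongin A. With 1 pooled column, CJ7_WT has no spread and the difference has no test. Whether the low mutant values follow the line or the substitution cannot be told apart with EloA_WT as the comparison.

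**Figure D3:**
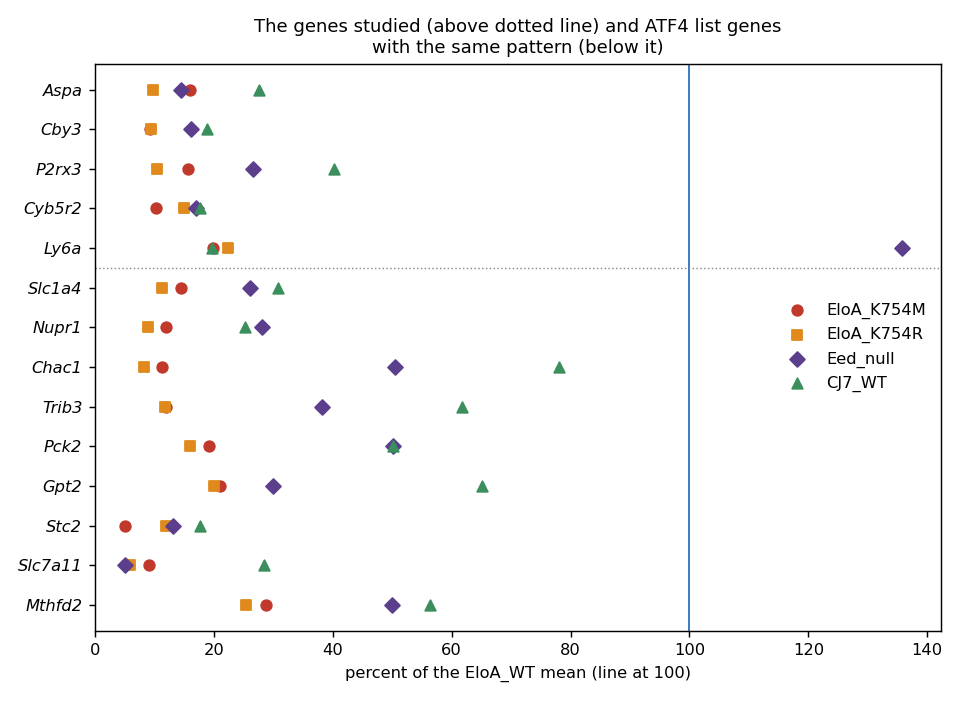
Level as a percent of the EloA_WT mean (x axis, linear from 0) for 5 of the genes studied (above the dotted line) and the 9 ATF4 list genes with the same 3-fold pattern (below it); circles and squares are means of 2 mutant libraries, diamonds and triangles the authors' pooled columns. Both pooled columns lie left of the line at 100 for every gene shown except Ly6a, whose Eed_null value is at 136%.

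Eed_null against CJ7_WT sets cells without a PRC2 subunit beside wild-type cells. By the line field these groups also differed in line, CCE28 against CJ7, although the Eed_null column name reads CJ7. By that field, line and loss of Eed cannot be told apart in this comparison. Among the 6, Ly6a alone was higher in Eed_null, with 386 recovered reads against 67 in CJ7_WT, a ratio of RPKM of 6.89 (95% exact interval 5.31 to 9.07). Of tested genes, 1.06% were at least 3 times higher in Eed_null and 0.429% at least 3 times lower. Aspa was lower in Eed_null, at a ratio of 0.528 (0.491 to 0.566), and so was P2rx3, at 0.661 (0.587 to 0.743). The intervals of Sncg (ratio 0.932, 0.837 to 1.04), Cyb5r2 (0.961, 0.635 to 1.45) and Cby3 (0.852, 0.559 to 1.29) included 1. Among all tested genes Ly6a was at the 99.8 percentile of this ratio, Aspa at 2.39 and P2rx3 at 7.97. The median log2 ratio over the 6 genes was -0.13, against 0.09 for all tested genes. The intervals cover counting error only, because each side is 1 pooled column.

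Across the 8 columns the 6 genes fell into 3 profiles. Aspa, Cyb5r2, P2rx3 and Cby3 followed each other, with Pearson r of log2 values between 0.920 and 0.971 over the 6 pairs. Ly6a was less like these 4, at 0.593 to 0.703, and Sncg less again, at 0.342 to 0.573 with the others. The columns share the EloA_WT high values and 8 points are few, so the coefficients describe the profiles and carry no test.

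The genes most like each profile were sought among 6120 genes that reached 0.5 RPKM with a log2 range of at least 1, and 4311 of them could be named, leaving out the 6 genes themselves and gene models without a name. P2rx3 was most like Slc1a4 (r 0.990), Mthfd2 (0.987), a mitochondrial folate enzyme, and Pycr1 (0.983), a proline synthesis enzyme. Aspa was most like Adi1 (0.977), Aars (0.974), an alanine tRNA synthetase, and Slc7a11 (0.973), a cystine transporter. Cyb5r2 was most like Becn1 (0.989), Fetub (0.981) and Taf15 (0.973), and Cby3 most like Phyh (0.990), Slc7a5 (0.981) and Stard3 (0.981). The mean profile of all 6 was closest to Psat1 (0.991), a serine synthesis enzyme, Sars (0.987), a serine tRNA synthetase, Polm, Becn1, Slc6a9, Slc1a4, Adm2, Gars, Rad51l3 and Stard3 (0.954). Of the 25 genes named by this search, 5 were in the ATF4 list, against 0.534% of those that could be named, and 7 lay on chromosome 11, against 12%. The 6 genes were picked for high EloA_WT values, and the ATF4 list was already known to be low in the mutant columns. These counts are therefore a description.

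Ly6a was most like Lemd1 (0.942), Prrt3 (0.930) and Tdrd12 (0.925). Lemd1 had 0.189 and 0.180 RPKM in EloA_K754M, 0.314 and 0.319 RPKM in EloA_K754R, 0.490 and 0.600 RPKM in EloA_WT, 0.653 RPKM in Eed_null and 0.193 RPKM in CJ7_WT. It was high where Ly6a was high, with a smaller range.

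Sncg was most like Uty (0.966), Prkd3 (0.952) and Calm2 (0.946). Uty, a Y-linked histone demethylase gene, had 0.309 and 0.406 RPKM in EloA_K754M, 1.40 and 1.59 RPKM in EloA_K754R, 1.14 and 2.01 RPKM in EloA_WT, 1.34 RPKM in Eed_null and 0.977 RPKM in CJ7_WT. Only 6 genes had EloA_WT and EloA_K754R values each at least 3 times both EloA_K754M values. They were Sncg, Rnf208, the Y-linked Eif2s3y and 3 gene models without a name. Eif2s3y, a translation initiation factor gene, had 0.509 and 0.421 RPKM in EloA_K754M, 2.75 and 3.13 RPKM in EloA_K754R, and 3.19 and 4.23 RPKM in EloA_WT. All 6 tested genes of chromosome Y were lower in both EloA_K754M libraries than in both EloA_WT libraries, with a median log2 change of -1.94, against 0.44 in EloA_K754R. The Y median against EloA_WT was also negative in the pooled columns, at -0.84 in CJ7_WT and -0.48 in Eed_null. Eif2s3y had 0.930 RPKM in CJ7_WT and 2.06 RPKM in Eed_null, where Sncg stood at 4.44 and 4.14 RPKM. Y-linked signal was thus low in the EloA_K754M libraries, as Sncg was. In CJ7_WT, Sncg stood at 69.7% of its EloA_WT mean, a log2 ratio of -0.50. Both Uty and Sncg lay below both of their EloA_WT values there. The part of Y-linked signal in the Sncg values was not tested.

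Whether the differences extended to the surroundings was tested on the nearest 5 protein-coding genes on each side of each of the 6, in the gene order of the GENCODE vM21 annotation. These 60 neighbours were not used in the picking, and 34 of them were tested. In EloA_K754M, 1 neighbour fell and none rose, while 0.204% of all tested genes fell and 0.0132% rose. In EloA_K754R, 1 fell and 1 rose, while 2.79% of all tested genes fell and 0.686% rose. An unadjusted p under 0.05 was reached by 12 of the 34 in EloA_K754M and 17 in EloA_K754R, against 15.4% and 25.1% of all tested genes. On recovered reads, limma-voom called Fam25c, Trpv3 and Tnks1bp1 lower in EloA_K754M. In EloA_K754R it called 7, Glud1 and Bmpr1a higher and Trpv3, Tnks1bp1, Canx, Hnrnph1 and Rufy1 lower, while it called 2.26% and 8.85% of all genes in the 2 comparisons. The median log2 change of the tested neighbours was -0.29 in EloA_K754M and -0.38 in EloA_K754R, against -0.06 and -0.14 over all tested genes. Of the 34, 9 neighbours of Cby3 and 5 of Aspa lie on chromosome 11, whose median over its tested genes was -0.46 and -0.56. The part of that chromosome in the neighbour values was not tested. The log2 changes of the 6 genes were lower than those of all their tested neighbours, except for Sncg in EloA_K754R. Since the 6 genes were picked for low mutant values and the neighbours were not, nothing is read from that gap.

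The neighbour that fell in EloA_K754M was Fam25c, directly next to Sncg on the same strand. Fam25c had 1.60 and 1.28 RPKM in EloA_K754M, 3.63 and 3.35 RPKM in EloA_K754R, and 4.53 and 5.60 RPKM in EloA_WT. Its log2 change was -1.75 (SE 0.16, adjusted p = 0.040, limma) in EloA_K754M and -0.52 (SE 0.16, adjusted p = 0.129, limma) in EloA_K754R. Between EloA_K754M and EloA_K754R the difference was -1.23 (SE 0.16) with an adjusted p of 0.057 in limma, short of the threshold of 0.05, which 0.29% of tested genes passed in that comparison. Unlike Sncg, Fam25c was also low in the pooled columns, at 1.61 RPKM in Eed_null and 1.46 RPKM in CJ7_WT. On the other side of Sncg, Mmrn2, an endothelial matrix glycoprotein gene, had log2 changes of -0.42 in EloA_K754M and 0.24 in EloA_K754R (adjusted p = 0.307 and 0.406 in limma). Bmpr1a, a BMP receptor gene and the next one along, rose in EloA_K754R, with 5.54 and 4.94 RPKM against 3.18 and 3.00 RPKM in EloA_WT (log2 change 0.74, SE 0.12, adjusted p = 0.040 in limma).

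Aspa lies between Trpv3 and Spata22 on the opposite strand. Trpv3, a heat-gated channel gene, had 0.0875 and 0.139 RPKM in EloA_K754M, 0.102 and 0.0814 RPKM in EloA_K754R, and 0.317 and 0.407 RPKM in EloA_WT. Its log2 changes of -1.12 and -1.26 in the 2 mutants did not pass the test (adjusted p = 0.137 in EloA_K754M and 0.058 in EloA_K754R, limma). Spata22, a meiosis gene, had log2 changes of -0.41 and -0.80 (adjusted p = 0.581 in EloA_K754M and 0.171 in EloA_K754R, limma). All 9 tested neighbours of Cby3 had negative log2 changes in both mutants. The one that fell was Hnrnph1, a splicing factor gene, with 10.6 and 12.4 RPKM in EloA_K754R and 19.5 and 19.4 RPKM in EloA_WT (log2 change -0.76, SE 0.13, adjusted p = 0.047 in limma). Canx, a chaperone of the endoplasmic reticulum on the other side of Cby3, had log2 changes of -0.43 and -0.63 (adjusted p = 0.243 in EloA_K754M and 0.072 in EloA_K754R, limma).

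Aspa and Cby3 share chromosome 11, where signal was lower over the whole chromosome. The median log2 change of its 1314 tested genes was -0.46 in EloA_K754M, with 85.0% negative, and -0.56 in EloA_K754R, with 91.0% negative. It was -0.43 in Eed_null and -0.44 in CJ7_WT, both against EloA_WT. Aspa and Cby3 were at -2.53 or lower in both mutants, and the part of the chromosome-wide difference in these values was not tested. The chromosomes of Cyb5r2, Ly6a and P2rx3 had medians between -0.04 and -0.19 in the mutants.

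No tested neighbour of Cyb5r2 or P2rx3 was called by limma on log2(RPKM + 0.1). Ppfibp2, next to Cyb5r2, had log2 changes of -0.10 and 0.05 (adjusted p = 0.857 in EloA_K754M and 0.915 in EloA_K754R, limma), and Eif3f, a translation initiation factor gene on the other side, -0.08 and -0.18 (adjusted p = 0.844 and 0.509, limma). Around P2rx3, Ssrp1 had log2 changes of -0.25 and -0.67 (adjusted p = 0.578 in EloA_K754M and 0.101 in EloA_K754R, limma) and Slc43a3, a purine base transporter gene, -0.67 and 0.33 (adjusted p = 0.313 and 0.483, limma). Tnks1bp1, the next gene beyond Ssrp1, had larger log2 changes of -1.20 and -1.05 (adjusted p = 0.098 in EloA_K754M and 0.062 in EloA_K754R, limma). The log2 changes of the overlapping genes Ppfibp2 and Ssrp1 thus lay between -0.67 and 0.05, far from those of Cyb5r2 and P2rx3.

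Only 1 neighbour of Ly6a was tested, its relative Ly6e. Ly6e had 0.929 and 0.518 RPKM in EloA_K754M, 0.845 and 0.468 RPKM in EloA_K754R, and 1.68 and 1.15 RPKM in EloA_WT. It stood at 1.53 RPKM in Eed_null and 0.457 RPKM in CJ7_WT, so it was higher in EloA_WT and Eed_null than in CJ7_WT, as Ly6a was. Its log2 changes of -0.91 in EloA_K754M and -1.03 in EloA_K754R did not pass the test (adjusted p = 0.321 and 0.157 in limma).

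**Figure D4:**
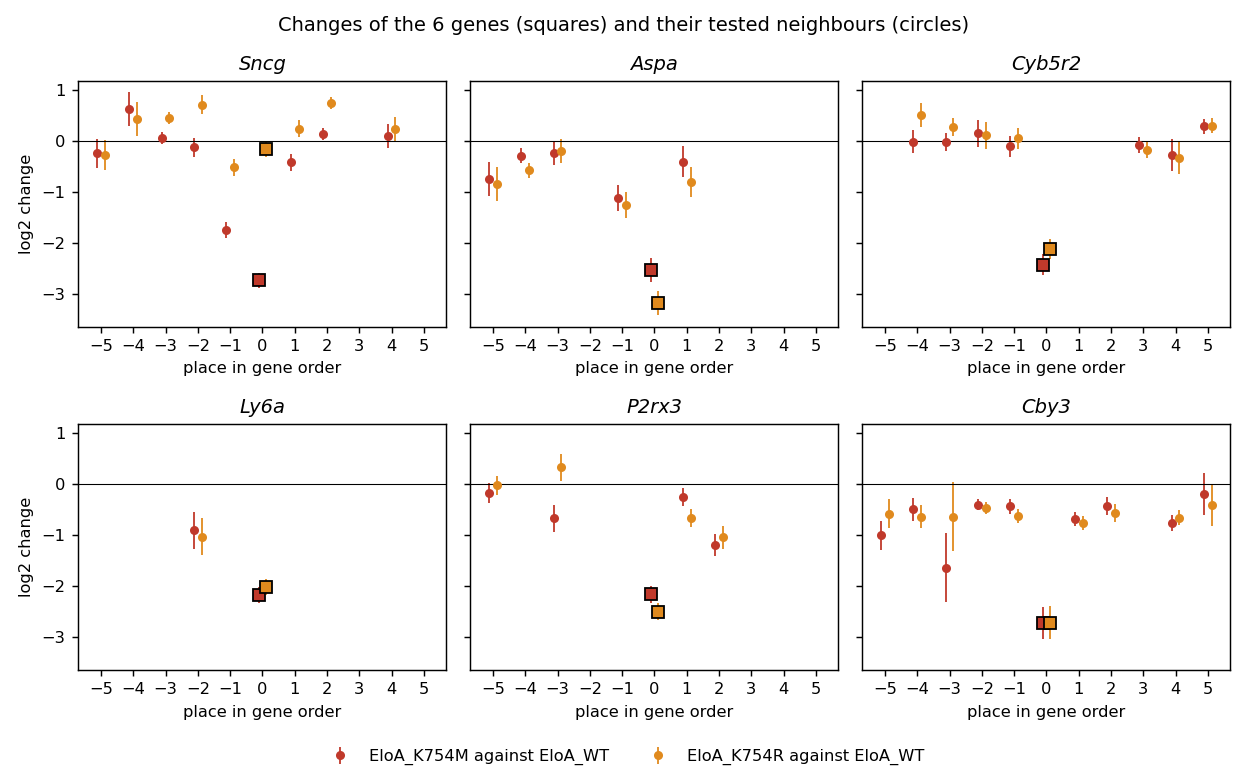
Log2 change against EloA_WT (y axis, bars are SE from limma) of each of the 6 genes (squares, place 0) and its tested neighbours (circles) by place in gene order (x axis). The squares lie at -2.02 or below except for Sncg in EloA_K754R at -0.17, and Fam25c at place -1 beside Sncg is at -1.75 in EloA_K754M.

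The relatives of the 6 genes were tested as a second set that the picking had not used. Of 65 synuclein, N-acetylaspartate, cytochrome b5, Ly6, purinergic receptor and Chibby or beta-catenin pathway genes, 34 were tested. None was called by limma in EloA_K754M, although 7 had an unadjusted p under 0.05, against 15.4% of all tested genes, and limma-voom on recovered reads called 1, Cd59a. In EloA_K754R, 2 fell and none rose, against 2.79% and 0.686% of all tested genes, and 8 had an unadjusted p under 0.05, against 25.1%. The median log2 change of the 34 was -0.09 in EloA_K754M and -0.21 in EloA_K754R, close to the -0.06 and -0.14 of all tested genes. Both calls in EloA_K754R were lost when any 1 library was left out, when library medians were made equal and without the filter, and so were the limma calls of Fam25c and Hnrnph1, while Bmpr1a kept its call at equal medians.

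Of the N-acetylaspartate and aminoacylase genes, 4 were tested and limma called none. Nat8l, which makes the substrate of aspartoacylase, had 0.159 and 0.175 RPKM in EloA_K754M, 0.272 and 0.135 RPKM in EloA_K754R, and 0.167 and 0.0721 RPKM in EloA_WT, with overlapping ranges. Unlike the Aspa values, these did not separate the mutants from EloA_WT. Rimklb, a synthase of peptides of N-acetylaspartate, had 1.97 and 1.62 RPKM in EloA_K754M, 2.38 and 2.15 RPKM in EloA_K754R, and 2.70 and 2.36 RPKM in EloA_WT. Acy1, an aminoacylase gene, had log2 changes of 0.27 and -0.67 (adjusted p = 0.552 in EloA_K754M and 0.100 in EloA_K754R, limma).

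Of 8 tested cytochrome b5 genes, Cyb5d1, which holds a cytochrome b5-like heme domain, fell in EloA_K754R. It had 1.92 and 2.64 RPKM in EloA_K754R and 4.65 and 5.35 RPKM in EloA_WT (log2 change -1.11, SE 0.18, adjusted p = 0.043 in limma), and it lies on chromosome 11. Cyb5r1 and Cyb5r3, the sister reductases of Cyb5r2, were not called. Cyb5r1 had 10.8 and 9.56 RPKM in EloA_K754M, 7.22 and 7.17 RPKM in EloA_K754R, and 8.70 and 8.65 RPKM in EloA_WT. Cyb5r3 had log2 changes of -0.56 and -0.59 (adjusted p = 0.208 in EloA_K754M and 0.105 in EloA_K754R, limma).

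Of 6 tested Ly6 and uPAR family genes, Cd59a, which guards cells against complement, fell in EloA_K754R. It had 0.432 and 0.487 RPKM in EloA_K754M, 0.393 and 0.427 RPKM in EloA_K754R, and 1.01 and 1.24 RPKM in EloA_WT. Its log2 change was -1.26 (SE 0.17, adjusted p = 0.033, limma) in EloA_K754R and -1.13 (SE 0.17, adjusted p = 0.081, limma) in EloA_K754M, and the mutants differed by 0.13 (SE 0.17). Its pooled values ran opposite to those of Ly6a, at 0.220 RPKM in Eed_null and 0.991 RPKM in CJ7_WT. None of the 8 tested interferon response genes was called in either mutant, and Ly6a is known to respond to interferon in other cells. An unadjusted p under 0.05 in limma was reached by 3 of the 8 in EloA_K754M and 2 in EloA_K754R, against 15.4% and 25.1% of all tested genes. The summed RPKM of the interferon response genes was 5.99 to 7.45 in the mutants and 7.67 to 7.75 in EloA_WT.

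Of 8 tested purinergic receptor genes limma called none. P2rx2, whose protein forms joint channels with P2rx3, had 1.39 and 0.969 RPKM in EloA_K754M, 1.58 and 0.673 RPKM in EloA_K754R, and 0.986 and 0.674 RPKM in EloA_WT, with overlapping ranges. P2ry14, a receptor for UDP-sugars, had log2 changes of -0.81 and -0.57 (adjusted p = 0.321 in EloA_K754M and 0.337 in EloA_K754R, limma). Of 8 tested Chibby and beta-catenin pathway genes it called none either. Cby1 had 0.566 and 0.371 RPKM in EloA_K754M, 0.346 and 0.384 RPKM in EloA_K754R, and 0.354 and 0.361 RPKM in EloA_WT. Ctnnb1, the gene of beta-catenin, had 11.5 and 11.1 RPKM in EloA_K754M, 10.8 and 13.2 RPKM in EloA_K754R, and 12.6 and 13.6 RPKM in EloA_WT. Tcf7l1, a DNA-binding partner of beta-catenin, had log2 changes of -0.32 and -0.16 (adjusted p = 0.541 in EloA_K754M and 0.700 in EloA_K754R, limma). Of the primitive endoderm and trophectoderm markers, 4 and 5 were tested and none was called in either mutant. An unadjusted p under 0.05 in limma was reached by 2 primitive endoderm markers in EloA_K754M and 1 in EloA_K754R. Among trophectoderm markers it was reached by 0 in EloA_K754M and 4 in EloA_K754R. In EloA_K754R 3 of the 5 trophectoderm markers were negative, with a median log2 change of -0.76. Of all tested genes, 15.4% and 25.1% reached that p in the 2 comparisons.

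The ATF4 list behaved differently, as the listing by pattern had shown. All 24 tested genes of it had negative log2 changes in both mutants, against 57.4% and 64.5% of all tested genes. By limma 7 fell in EloA_K754M and 20 in EloA_K754R, against 0.204% and 2.79%, and the medians were -1.42 and -1.39. Its summed RPKM was 59.0 to 75.7 in the mutants, 139 to 148 in EloA_WT, 60.5 in Eed_null and 62.7 in CJ7_WT. The list was known from earlier work on these columns to be low, so its count is a description. Aspa, Cyb5r2, P2rx3 and Cby3 were, like this sum, highest in both EloA_WT libraries, although none of them is in the list.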

How the data were processed

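The authors deposited 1 table of intronic RPKM for 24901 genes in 8 columns. Reads were aligned with BWA to mm9, per the submitters' processing notes. The sources used here give no BWA version, counter, annotation or strand handling. Multi-mapping and overlapping reads could shift single genes. Values were tested as log2(RPKM + 0.1) with limma 3.58.1 (R 4.3.3; trend, 2-sided) on the 6 EloA libraries in 1 fit, keeping genes that averaged 0.1 RPKM or more, with Benjamini-Hochberg adjustment over 15161 genes at 0.05. The fit left 3 residual degrees of freedom. A log2 change understates changes of low genes. The samples are not said to come from separate cultures, so the p-values cover the spread among these libraries, which may be technical. The fit was tested on simulated data. Whole reads came out for all 20817 genes above 0 in at least 6 columns (100%), within 0.01 read (up to 0.06 for high values). They give the depths and were tested with limma-voom as an alternative, which called 342 genes in EloA_K754M and 1337 in EloA_K754R. Exact 95% intervals of read ratios cover counting error only. The 6 genes and all lists were chosen with earlier results of these data known. All 6 genes are named. For each family, every called relative was named, or otherwise the 2 most abundant in EloA_WT. Nat8l, Cyb5r1, Cyb5r3, Cby1 and Ly6e were added for their link to a gene of the 6, and Tnks1bp1 and the neighbours that limma-voom called were added too, all after their values were seen. For neighbours, the nearest tested ones and every called one were named. The pattern genes were ordered by the ratio of the lowest EloA_WT value to the highest mutant value, after adding 0.1 RPKM to each. Likeness used Pearson r over the 8 columns, for genes reaching 0.5 RPKM with a log2 range of at least 1. The annotation (GENCODE vM21 and RefSeq, on GRCm38) is not of the table's build and gave names, chromosomes and gene order only, and the promoter sequences with their own coordinates. Alternatives were other offsets, filters and scalings, limma-voom, the replicate number as a block and leaving out each library.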

Additional observations from a re-analysis of the deposited data

How the results depend on the processing

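The 6 genes' median log2 difference from EloA_WT kept its sign under every alternative run. In EloA_K754M it was -1.26 with an offset of 1 RPKM, -2.75 with 0.01 RPKM, -2.35 with equal library medians and -2.78 with limma-voom. In EloA_K754R it was -1.02, -2.91, -2.12 and -2.99 under the same settings and -2.13 with quantile normalization. Leaving out a library gave -2.55 to -2.40 in EloA_K754M and -2.38 to -2.28 in EloA_K754R. The EloA_K754R difference of Sncg was -0.17 as reported, 0.025 with equal medians and 0.0072 with quantile normalization. Equal medians also moved the split of called genes in EloA_K754R to 160 lower and 164 higher, against 423 lower and 104 higher. The calls of neighbours and relatives were not stable. Called neighbours numbered 0 in EloA_K754M without a filter, with equal medians or with quantile normalization, 3 with limma-voom, and 0 without any 1 library. In EloA_K754R they numbered 0 without a filter, 1 with equal medians, 1 with quantile normalization, 7 with limma-voom, and 0 without any 1 library. Called relatives in EloA_K754R numbered 0 without a filter, with either rescaling or without any 1 library, and limma-voom called 1 in EloA_K754M. Leaving out 1 library left 2 residual degrees of freedom, and 2 to 52 genes of all were then called in EloA_K754M and 1 to 9 in EloA_K754R. With the replicate number as a block, 1 and 5 relatives and 2 and 11 neighbours were called in EloA_K754M and EloA_K754R, while 1.5% and 11.7% of all tested genes were. The calls so gained include Cd59a and Tnks1bp1 in EloA_K754M, and Acy1, Ly6e, Plaur, Trpv3, Ssrp1, Tnks1bp1 and Canx in EloA_K754R. The numbers are only shared labels: differences between replicates 1 and 2 correlated at 0.15 to 0.20 between groups, and 2 pairs cannot show pairing. The 3-fold pattern held for 47 genes at 2 times, 6 at 5 times and 1 with an offset of 1 RPKM, and in the last 2 cases Aspa was the one of the 5 genes left. With equal medians it held for 18 genes, without Ly6a. Leaving out a library gave 26 to 42 genes, with 39 without EloA_WT replicate 1 and 42 without replicate 2. Having fewer values to compare can only loosen this rule. That all of the 23 were kept each time was therefore fixed in advance, and nothing is read from it. The cause of these movements was not tested, beyond the fewer samples. Depth limits Cby3 and Cyb5r2 most, with 6 to 24 reads in a mutant library.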
